A study of Mus musculus with 6 samples.

Results

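Genes of 10 nutrient transporters that T cells need when they are activated were followed in CD8 T cells sorted from mouse pancreas. They are Slc7a5, Slc3a2, Slc1a5, Slc38a1, Slc38a2 and Slc7a1 for amino acids, Slc2a1 and Slc2a3 for glucose, and Slc16a1 and Slc16a3 for lactate. Members were taken by symbol, from probes that the platform annotation gives a single gene, with the probe of the highest mean over all arrays kept for each gene. All 10 were measured among 19929 genes, and all 10 were bright enough to be among the 13950 genes tested, with both group means of each above the limit of 5.47 log2.

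The cells carried AI4, a transgenic T cell receptor for a beta cell antigen, in both groups, and both groups were on the C57BL/6.H2g7/g7 background. AI4 mice developed type 1 diabetes. Rip-B7xAI4 mice also carried a transgene that places B7x, an inhibitory ligand of the B7 family, on beta cells through the rat insulin promoter, and were resistant to the disease. B7x on beta cells and the absence of diabetes therefore cannot be told apart as sources of a difference. Each group had 3 single-colour arrays of total RNA, named as biological replicates, and the pancreata behind them were pooled. The sources used here give neither the ages of the mice nor the number pooled.

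A resting T cell imports few nutrients, and signals from the antigen receptor and CD28 raise its uptake of amino acids and sugar before it divides. Slc7a5 (LAT1) carries large neutral amino acids such as leucine and works as a pair with Slc3a2 (CD98 heavy chain). Leucine that enters this way helps to activate the kinase complex mTORC1, and the transcription factors Myc, Hif1a and Atf4 are known to induce several of these transporters. Glucose enters through Slc2a1 (GLUT1) and Slc2a3 (GLUT3), and the lactate made from it leaves through Slc16a1 (MCT1) and Slc16a3 (MCT4), whose chaperone is basigin (Bsg). Much of the control of these carriers acts on the protein and its place in the membrane, which arrays do not measure.

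Sorted T cells can carry RNA of other cells, and 2 of the Rip-B7xAI4 arrays stood apart in this. The mean of 11 T cell marker genes lay between 9.88 and 10.45 log2 in AI4 and between 9.78 and 10.46 in Rip-B7xAI4, with Cd8a at 9.21 or more and Cd3e at 9.11 or more on every array. Of the 11, 0 were higher and 1 was lower in Rip-B7xAI4 at an unadjusted p under 0.05: Cd8b1, the beta chain of CD8, differed by -1.0 (unadjusted p = 0.0387 by limma). Cd8a differed by -0.69 ± 0.35 (SE), Lat, an adaptor of the antigen receptor, by -0.80 and Cd3e by 0.88 ± 0.42. Cd8b1 and Lat were picked for naming after their values were seen. The mean of 19 myeloid markers was 6.12 to 6.47 in AI4, but 8.92, 6.25 and 8.79 in Rip-B7xAI4 replicates 1, 2 and 3. Neutrophil markers ran in the same way, at 5.69 to 5.78 in AI4 and 9.05, 5.88 and 8.13 in Rip-B7xAI4. All 18 tested myeloid markers and all 8 neutrophil markers had differences above 0, with 4 and 3 at an unadjusted p under 0.05. Those are 22.2% and 37.5% of the lists, against 8.73% of all tested genes. Lyz2, a myeloid lysozyme, read 11.40, 5.59 and 9.64 in Rip-B7xAI4, and S100a8, a neutrophil protein, 10.46, 6.01 and 9.46. With an AI4 mean of 5.03, S100a8 was tested only through its Rip-B7xAI4 level. The same holds for the myeloid marker Adgre1 and the neutrophil marker Ltf, with AI4 means of 5.30 and 5.38. All of them are in the counts above, so those counts are no support for a difference of the lists. The B cell list had a mean of 5.50 to 6.06 in AI4 and 6.42, 5.595 and 6.40 in Rip-B7xAI4 replicates 1, 2 and 3. The acinar list had a mean of at most 6.17 on any array and the beta cell list of at most 5.41. The endothelial and stromal list lay at 6.35 to 6.67 in AI4 and at 5.845 to 6.33 in Rip-B7xAI4.

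None of the 10 transporter genes differed between the cells of Rip-B7xAI4 and AI4 pancreas beyond the spread between arrays. By limma, 0 of 10 passed an adjusted p of 0.05, against 0.00717% (1 gene) of all tested genes, and 0 of 10 had an unadjusted p under 0.05, against 8.73% of all tested genes. The values of the groups overlapped for all 10, while they did not overlap for 17.9% of tested genes. With 10 genes these shares are described and not tested against each other. Differences, given throughout as Rip-B7xAI4 minus AI4, lay between -0.09 (Slc7a5) and 0.50 (Slc2a3) on the log2 scale, and 9 of the 10 were smaller than their standard error (SE). Of the 10, 8 were above 0 and 2 below, with a median of 0.14 against -0.10 over all tested genes. The median of the 10 was lowest, at -0.0055, without Rip-B7xAI4 replicate 1 and highest, at 0.29, without Rip-B7xAI4 replicate 3. In the other settings run it was above 0, and in every setting it was above the median of all tested genes. The sign of 7 of the 10 differences turned in at least 1 setting. Neither the signs nor the median were tested, so no direction is drawn from them.

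**Figure D1:**
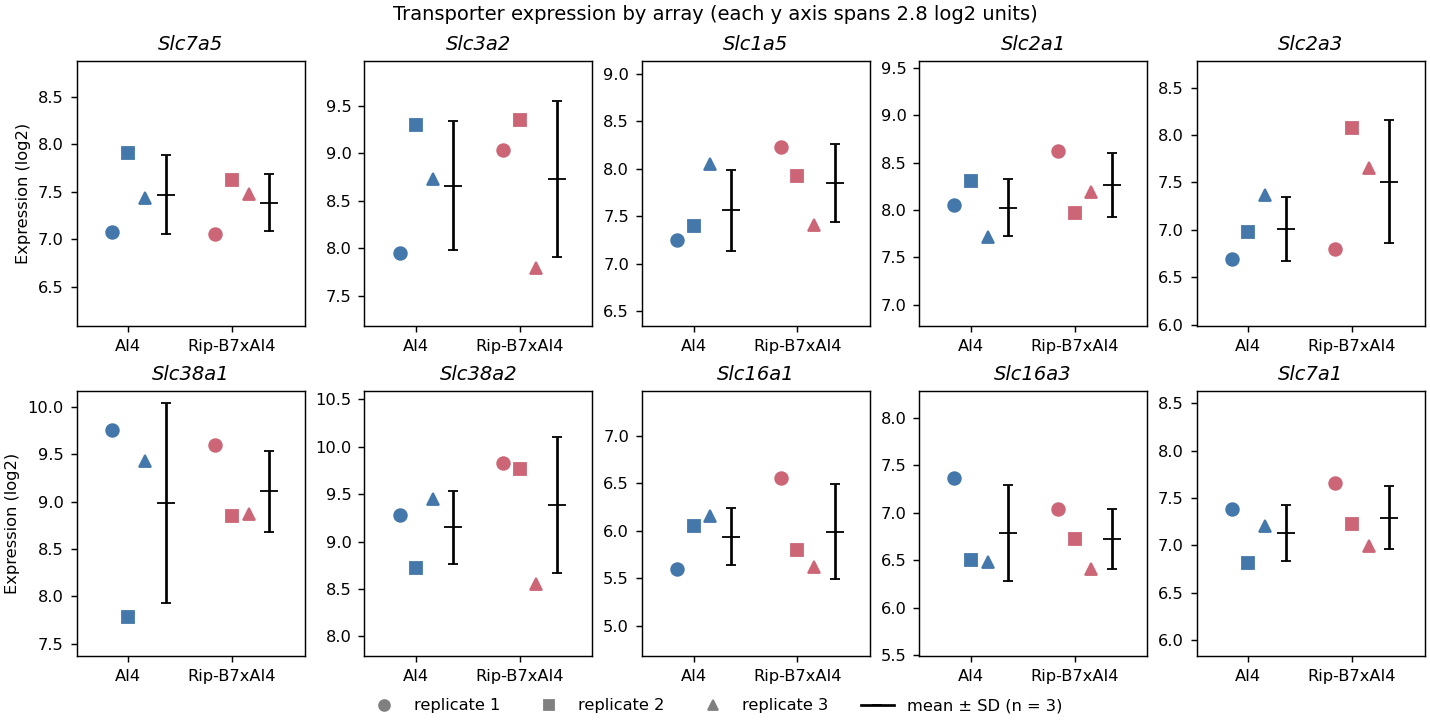
Expression (log2) of each transporter gene on the 3 AI4 arrays (blue) and the 3 Rip-B7xAI4 arrays (red), with the marker giving the replicate number and the black bar the mean ± SD of each group. All y axes have the same span, and in every panel the groups overlap.

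The leucine carrier and its partner had group means close to each other and varied widely within the groups. Slc7a5 (probe 10582275) stood at 7.07, 7.91 and 7.43 log2 in AI4 replicates 1 to 3 and at 7.05, 7.63 and 7.47 in Rip-B7xAI4. The lowest and the middle arrays of the groups nearly coincided. Its mean was 7.47 ± 0.42 (SD, n = 3) in AI4 and 7.39 ± 0.30 in Rip-B7xAI4, a difference of -0.09 ± 0.27 (SE) with a 95% interval of -0.73 to 0.56.

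Slc3a2, which brings Slc7a5 and several other carriers to the cell surface, had among the widest spreads. Its values (probe 10465772) were 7.95, 9.30 and 8.73 on the AI4 arrays and 9.04, 9.35 and 7.80 on the Rip-B7xAI4 arrays. Each group held 1 array near 9.3 and 1 below 8.0. The means were 8.66 ± 0.68 (SD, n = 3) and 8.73 ± 0.82, and the interval of the difference, 0.07 ± 0.50 (SE), ran from -1.12 to 1.25. Across the 6 arrays the partners had a Pearson r of 0.47, which is a description over arrays that differ in cell makeup.

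The carriers of glutamine and other small neutral amino acids had differences above 0 that stayed within the spread. Slc1a5 (ASCT2, probe 10550332), an exchanger that takes up glutamine, read 7.25, 7.39 and 8.05 on the AI4 arrays and 8.23, 7.92 and 7.41 on the Rip-B7xAI4 arrays. In AI4 replicate 3 it was higher than in 2 of the 3 Rip-B7xAI4 arrays. The difference was 0.29 ± 0.30 (SE), with an interval of -0.43 to 1.01.

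Slc38a2 (SNAT2, probe 10431894), a sodium-coupled carrier that cells raise when amino acids are short, read 9.28, 8.72 and 9.45 on the AI4 arrays and 9.83, 9.77 and 8.55 on the Rip-B7xAI4 arrays. Rip-B7xAI4 thus held both its highest values and its lowest. The group means were 9.15 ± 0.38 (SD, n = 3) and 9.38 ± 0.72, and the interval of the difference, 0.23 ± 0.39 (SE), ran from -0.70 to 1.16.

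Slc38a1 (SNAT1), its relative with a similar range of substrates, had the least certain value. The kept probe, 10431874, read 9.75, 7.79 and 9.43 on the AI4 arrays and 9.60, 8.85 and 8.87 on the Rip-B7xAI4 arrays. AI4 replicate 2 alone was low, and without it the difference was -0.48 ± 0.31 (SE) in place of 0.12 ± 0.53. The gene's other probe, 10431872, read 7.45, 6.85 and 7.54 on the AI4 arrays and 8.81, 6.70 and 7.58 on the Rip-B7xAI4 arrays. That probe was high on Rip-B7xAI4 replicate 1 alone and at its lowest on replicate 2, with a difference of 0.42 ± 0.53 (SE). Slc38a1 was the only transporter of the 10 with a pair of probes.

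Slc7a1 (CAT1, probe 10535852), the main carrier of arginine and lysine, varied little. It read 7.39, 6.81 and 7.20 on the AI4 arrays and 7.65, 7.23 and 6.998 on the Rip-B7xAI4 arrays. The AI4 array of replicate 1 lay above 2 of the 3 Rip-B7xAI4 arrays. The difference of 0.16 ± 0.25 (SE) had an interval of -0.43 to 0.75.

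Of the glucose carriers, Slc2a3 had the largest difference of the 10 transporters. GLUT3, its product, has a high affinity for glucose. Its values (probe 10547641) were 6.69, 6.97 and 7.36 on the AI4 arrays and 6.80, 8.07 and 7.66 on the Rip-B7xAI4 arrays. Rip-B7xAI4 replicates 2 and 3 lay above all AI4 arrays, and replicate 1 lay below 2 of them. Means of 7.01 ± 0.34 (SD, n = 3) and 7.51 ± 0.65 gave a difference of 0.50 ± 0.36 (SE), an interval of -0.35 to 1.35, an unadjusted p = 0.205 and an adjusted p = 0.614 by limma. Without Rip-B7xAI4 replicate 1 the difference was 0.86 ± 0.27 (unadjusted p = 0.0227, adjusted p = 0.855 by limma), and with Rip-B7xAI4 replicate 2 left out it was 0.22 ± 0.35. Over all alternatives its adjusted p lay between 0.263 and 0.953.

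Slc2a1, whose product GLUT1 is the carrier best known for glucose uptake by activated T cells, had closer values. It read 8.05, 8.31 and 7.71 on the AI4 arrays and 8.63, 7.96 and 8.19 on the Rip-B7xAI4 arrays (probe 10507594). The high array was Rip-B7xAI4 replicate 1, where Slc2a3 was at its lowest in that group. The difference was 0.23 ± 0.25 (SE) and its interval, -0.36 to 0.83, held no change past 1 in either direction, where 1 log2 unit is a doubling.

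The lactate carriers were the closest to equal. Slc16a1 (MCT1, probe 10495035), which moves lactate and pyruvate with a proton, read 5.59, 6.05 and 6.16 on the AI4 arrays and 6.56, 5.79 and 5.61 on the Rip-B7xAI4 arrays. These values lie close to the array medians of 5.94 to 6.10, and how far they lie above background is not known. Its difference was 0.05 ± 0.30 (SE), with an interval of -0.66 to 0.77.

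Slc16a3 (MCT4, probe 10383502), a form that hypoxia is known to induce and that exports lactate, read 7.37, 6.51 and 6.48 on the AI4 arrays and 7.04, 6.73 and 6.41 on the Rip-B7xAI4 arrays. Replicate 1 was the highest array of each group. The difference was -0.06 ± 0.30 (SE), with an interval of -0.78 to 0.66.

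The intervals say how large a difference could have been missed. For 5 of the 10 genes, Slc7a5, Slc2a1, Slc7a1, Slc16a1 and Slc16a3, the 95% interval lay wholly between -1 and 1 on the log2 scale. For the other 5 it reached past 1, and for Slc3a2 and Slc38a1 also below -1. These intervals are for 1 gene at a time and are not widened for the 10 that are read together.

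**Figure D2:**
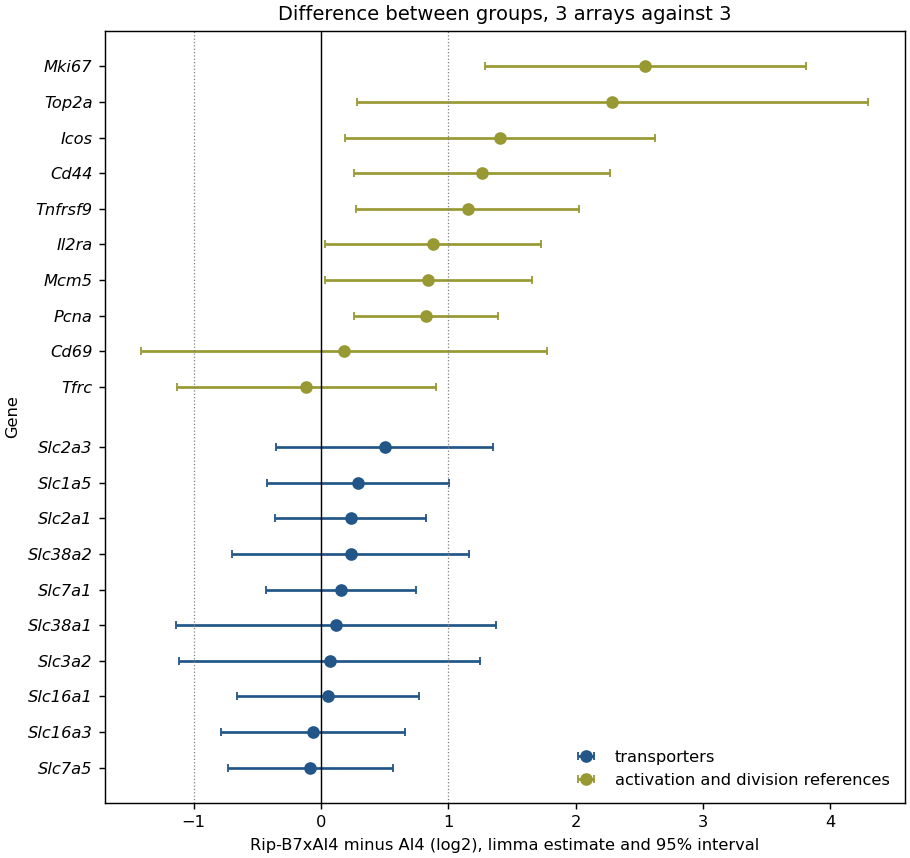
Difference between groups (Rip-B7xAI4 minus AI4, log2) with its 95% limma interval for the 10 transporters (blue) and for 10 activation and division genes (olive); dotted lines mark -1 and 1. Every transporter interval spans 0, while 8 of the 10 reference intervals lie above it.

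The 2 arrays with high myeloid markers were not alike in their transporters. After each gene was centred on its own mean over the 6 arrays, the median of the 10 was 0.46 on Rip-B7xAI4 replicate 1 and -0.26 on replicate 3. Both arrays had high myeloid markers. On replicate 2, with low myeloid markers, the median was 0.11, and in AI4 it was -0.22, -0.27 and 0.07. How myeloid content bears on this median was not tested. On Rip-B7xAI4 replicate 1, 8 of the 10 transporters were above their own mean and 5 were at their highest; the exceptions below their mean were Slc7a5 and Slc2a3. On Rip-B7xAI4 replicate 3, 3 of 10 were above their mean and 3 were at their lowest. In bulk RNA, fewer cells of a type and less RNA per cell cannot be told apart. Macrophages and neutrophils also use glucose and lactate carriers, and the part of such cells in each transporter's value was not tested. Without Rip-B7xAI4 replicates 1 and 3 together, which leaves 1 array in that group, 0 of 10 passed the adjusted limit and 1, Slc2a3, had an unadjusted p under 0.05 (difference 1.06 ± 0.35 SE, unadjusted p = 0.0336, adjusted p = 0.953 by limma). The spread of the single array left is then taken to be that of the AI4 group. In that fit the differences of the 10 ran from -0.14 (Slc16a1) to 1.06, with Slc3a2 at 0.69 and Slc38a2 at 0.62.

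**Figure D3:**
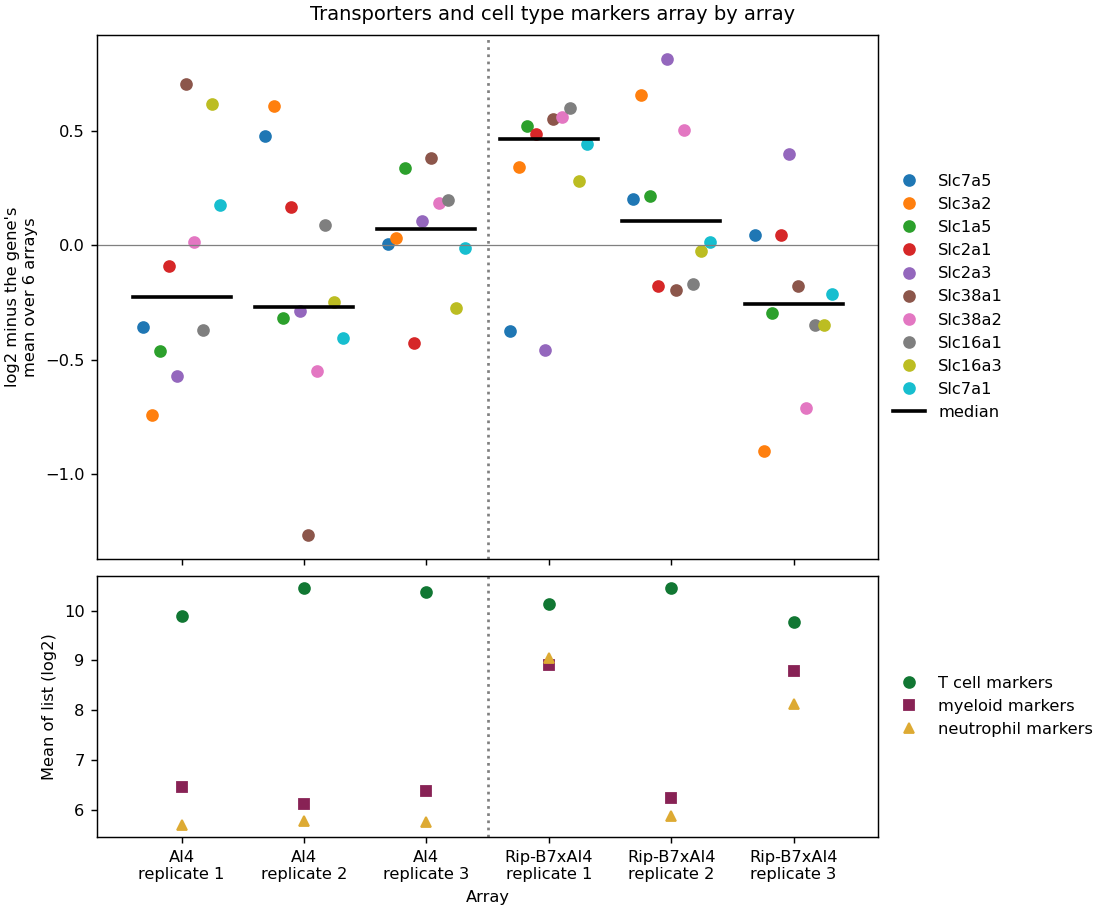
Top, each transporter's log2 value minus its own mean over the 6 arrays, with the median of the 10 as a black line. Bottom, mean log2 expression of the T cell, myeloid and neutrophil marker lists on the same arrays. The median is highest on Rip-B7xAI4 replicate 1 (0.46) and lies at -0.26 on replicate 3, and both arrays have high myeloid and neutrophil lists.

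The transporters did not vary as 1 block. Over the 6 arrays, Slc38a1 and Slc7a1 ran together (Pearson r = 0.852), as did Slc38a2 and Slc7a1 (0.804) and Slc1a5 and Slc16a1 (0.775). Slc7a5 ran against Slc38a1 (-0.933) and against Slc7a1 (-0.885), and the glucose carriers Slc2a1 and Slc2a3 had an r of -0.464. These are descriptions over 6 arrays that differ in cell makeup. The tested genes whose values ran closest to the mean of the centred transporters were Alg8, an enzyme of N-glycan assembly (r = 0.997), Gin1 (0.986), the centromere gene Cenpc1 (0.984), the ubiquitin ligase gene Ube3c (0.982) and Tes (0.980), out of 13940 genes searched. Those running most against it were Nhs (-0.996), 4933405L10Rik (-0.993), Ldb2 (-0.993), Tctex1d1 (-0.990) and Igsf8 (-0.989). No p is given for these, because the genes were picked for their r among so many.

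Genes of activation and division, read as a reference on the same arrays, had larger differences. Of 10 genes, 8 were higher in Rip-B7xAI4 at an unadjusted p under 0.05, 0 were lower and 0 passed the adjusted limit, with a median of 1.01. Over all 13950 tested genes 8.73% had such a p, 776 higher and 442 lower. Mki67, which marks dividing cells, read 6.78, 6.03 and 5.25 on the AI4 arrays and 9.39, 8.62 and 7.70 on the Rip-B7xAI4 arrays, a difference of 2.55 ± 0.53 (SE; adjusted p = 0.266 by limma). Every Rip-B7xAI4 array was above every AI4 array for this gene, and the groups did not overlap in either direction for 17.9% of tested genes. Pcna, the sliding clamp of DNA replication, differed by 0.83 ± 0.24 and Tnfrsf9 (4-1BB), a costimulatory receptor, by 1.15 ± 0.37. Tfrc, the transferrin receptor, which imports iron and is raised by activation like the nutrient carriers, was among the 2 that had no such p: it read 7.03, 8.25 and 8.67 on the AI4 arrays and 8.18, 7.79 and 7.64 on the Rip-B7xAI4 arrays, a difference of -0.12 ± 0.43. The count of 8 fell to 2 without Rip-B7xAI4 replicate 1, to 3 with replicate 2 of either group left out, to 4 when AI4 replicate 3 was omitted and to 3 when Rip-B7xAI4 replicates 1 and 3 were both omitted, while the list median stayed between 0.84 and 1.15 in all settings run. Whether these genes differ from the transporters in their response was not tested. The part of myeloid cells in the values of these genes was not tested either.

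Other carriers of the same substrates had medians below 0, as all genes did. Of 14 tested amino acid transporters outside the 10, 0 were higher and 1 was lower at an unadjusted p under 0.05, with a median of -0.18. That was Slc43a1 (LAT3), a sodium-independent carrier of branched amino acids, at 6.63, 5.95 and 6.36 on the AI4 arrays and 5.81, 5.77 and 5.77 on the Rip-B7xAI4 arrays, a difference of -0.53 ± 0.21 (SE; adjusted p = 0.566 by limma). Its relative Slc43a2 (LAT4) differed by -0.49 ± 0.22 and the taurine carrier Slc6a6 by 0.88 ± 0.50. Of 10 tested sugar transporters, 0 had an unadjusted p under 0.05 in either direction (median -0.11); Slc2a8, Slc2a13 and Slc2a4 differed by -0.44 ± 0.21, -0.28 ± 0.17 and -0.24 ± 0.22. The 255 tested solute carrier genes outside the 10 include those of the 2 lists above and further relatives of the 10. Of them, 5 were higher and 11 lower at an unadjusted p under 0.05, 6.27% in all, against 8.73% of all tested genes. At the adjusted limit 0 passed, and the median was -0.15. Some of the counted genes were tested only through the group where they are high, as named under the other observations.

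Genes that work with the lactate carriers had values on both sides of 0. Ldha, the lactate dehydrogenase subunit that favours lactate production, read 7.30, 8.03 and 7.94 on the AI4 arrays and 8.54, 9.17 and 8.24 on the Rip-B7xAI4 arrays. All Rip-B7xAI4 arrays were above all AI4 arrays, with a difference of 0.89 ± 0.31 (SE; unadjusted p = 0.0253, adjusted p = 0.530 by limma). Emb (embigin), a chaperone of monocarboxylate carriers, ran the other way, at 9.99, 10.83 and 11.04 on the AI4 arrays and 9.77, 9.94 and 9.27 on the Rip-B7xAI4 arrays. Again the groups did not overlap, with a difference of -0.96 ± 0.33 (unadjusted p = 0.0229, adjusted p = 0.520 by limma). Such a lack of overlap, in either direction, was seen for 17.9% of tested genes. Ldhb differed by -0.44 ± 0.20 and Bsg, the chaperone of Slc16a1 and Slc16a3, by 0.19 ± 0.39. Of 8 tested genes in this list, 1 was higher and 1 lower at an unadjusted p under 0.05 and 0 passed the adjusted limit, with a median of 0.06. Those are 25% of the list, against 8.73% of all tested genes, and the shares were not tested against each other.

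Regulators known to induce the transporters showed no difference past the adjusted limit. Myc read 9.24, 8.87 and 8.29 on the AI4 arrays and 8.89, 9.24 and 7.59 on the Rip-B7xAI4 arrays, a difference of -0.23 ± 0.47 (SE). Hif1a differed by 0.06 ± 0.44, and Max, the binding partner of Myc, by 0.62 ± 0.29. In this list of 15 genes, 0 were higher and 1 lower at an unadjusted p under 0.05: Egln3, an oxygen sensor that Hif1a itself induces, differed by -0.70 ± 0.27. The Myc antagonist Mnt differed by -0.37 ± 0.18. At the unadjusted limit the list had 6.67%, against 8.73% of all tested genes.

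Atf4, which drives amino acid transport and synthesis when amino acids are scarce, read 7.64, 7.46 and 7.34 on the AI4 arrays and 8.51, 8.16 and 7.49 on the Rip-B7xAI4 arrays. Rip-B7xAI4 replicate 3 fell within the AI4 range, and the difference of 0.58 ± 0.28 (SE) had an unadjusted p = 0.0808 (adjusted p = 0.578 by limma). Of the 15 tested genes in its list, 0 had an unadjusted p under 0.05 in either direction and the median was -0.04. Trib3, a pseudokinase induced by Atf4, differed by -0.29 ± 0.16 and Psat1, an enzyme of serine synthesis, by 0.51 ± 0.31.

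In the mTORC1 pathway, which senses the imported leucine, 1 of 24 tested genes was higher and 2 were lower at an unadjusted p under 0.05. Mtor itself differed by -0.27 ± 0.21 (SE). Lamtor3, a part of the Ragulator scaffold on the lysosome, differed by 1.36 ± 0.50, with AI4 replicate 3 at 9.20 inside the Rip-B7xAI4 range of 9.05 to 9.67. Eif4ebp1, a brake on translation that mTORC1 releases, differed by -0.50 ± 0.19, and Flcn (folliculin), a regulator of the Rag GTPases, by -0.53 ± 0.22. For both, all Rip-B7xAI4 arrays were below all AI4 arrays. The list held 4 such genes of 24, and over all tested genes the groups did not overlap in either direction for 17.9%. The list median was -0.09 and 0 genes passed the adjusted limit. At the unadjusted limit the list had 12.5%, against 8.73% of all tested genes.

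Genes that act on transporter proteins in the membrane had 1 higher and 1 lower of 10 tested at an unadjusted p under 0.05. Those are 20% of the list, against 8.73% of all tested genes, and the shares were not tested against each other. Nedd4, a ubiquitin ligase, differed by 0.78 ± 0.30 (SE) and Pik3ip1, an inhibitor of PI3 kinase, by -0.88 ± 0.34. Pik3ip1 read 6.74 and 6.63 on the 2 Rip-B7xAI4 arrays with high myeloid markers and 7.75 on replicate 2, within the AI4 range of 7.66 to 8.23. Txnip, which promotes the removal of GLUT1 from the surface and is lowered by activation, read 9.94, 9.58 and 9.98 on the AI4 arrays and 9.70, 9.80 and 8.60 on the Rip-B7xAI4 arrays. Rip-B7xAI4 replicate 3 alone was low, and the difference was -0.47 ± 0.34. Sgk1, a kinase that stabilises several carriers, differed by 0.48 ± 0.23.

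Enzymes that use the imported amino acids had 0 higher and 1 lower of 12 tested at the same limit, with a median of 0.17. That is 8.33% of the list, against 8.73% of all tested genes. Bckdhb, a subunit of the complex that breaks down branched amino acids, differed by -0.91 ± 0.36 (SE). Its Rip-B7xAI4 mean of 5.23 lay below the limit of 5.47 for testing, so it was tested only through its AI4 level, and the count of 1 is no support for a difference of the list. Ldhb, above, was likewise tested only through AI4, with a Rip-B7xAI4 mean of 5.27. Bckdk, the kinase that restrains this complex, differed by 0.51 ± 0.27. Glul, which makes glutamine, differed by 1.10 ± 0.67, with its highest value, 11.07, on Rip-B7xAI4 replicate 1.

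The small counts in these lists moved when single arrays were left out, other than the 0 of the sugar transporters. In the mTORC1 list the 1 higher and 2 lower became 0 and 0 without Rip-B7xAI4 replicate 1, and 1 and 0 either with Rip-B7xAI4 replicate 3 omitted or with the replicate number as a block; with AI4 replicate 1 omitted it was 0 and 2, with AI4 replicate 2 or Rip-B7xAI4 replicate 2 omitted 0 and 1, and with AI4 replicate 3 omitted 1 and 1. The 1 lower amino acid transporter became 0 with AI4 replicate 3 or either of Rip-B7xAI4 replicates 1 and 2 omitted, and 3 with AI4 replicate 1 omitted. The 1 lower of the Myc and hypoxia list became 0 with any array omitted but AI4 replicate 1, and 1 was higher when AI4 replicate 2 or 3 was. Of the Atf4 list, 3 were higher with Rip-B7xAI4 replicate 3 omitted and 1 was lower with Rip-B7xAI4 replicate 1 omitted. The lactate list had 0 higher without AI4 replicate 1 and, beside 2 lower, without Rip-B7xAI4 replicate 2, and 0 lower with AI4 replicate 2 or 3 or Rip-B7xAI4 replicate 3 omitted. The regulators of transporter proteins had 0 and 0 without AI4 replicate 2 or Rip-B7xAI4 replicate 1, 2 higher and 0 lower without AI4 replicate 3 or Rip-B7xAI4 replicate 3, and 0 higher and 1 lower with AI4 replicate 1 or Rip-B7xAI4 replicate 2 omitted. The amino acid enzymes had 0 lower with AI4 replicate 2 or 3 or Rip-B7xAI4 replicate 2 or 3 omitted, and 1 higher without Rip-B7xAI4 replicate 1. With replicates 1 and 3 of Rip-B7xAI4 both omitted, 1 lactate gene and 2 genes of the Atf4 list were higher, and 0 genes of these lists were lower.

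**Figure D4:**
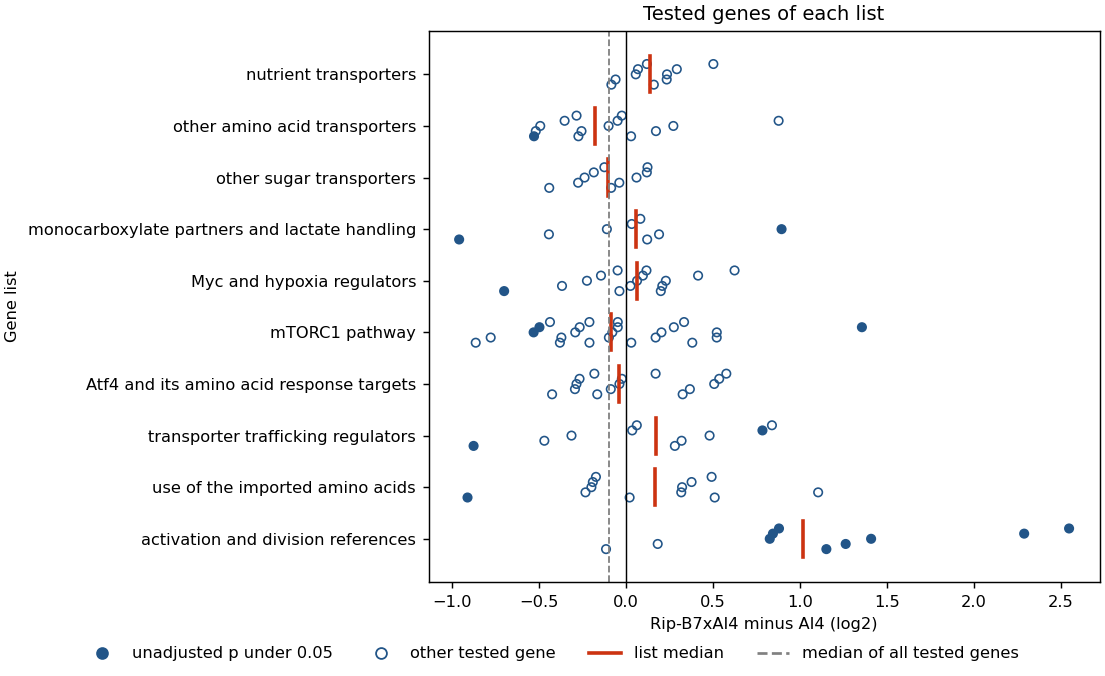
Difference between groups (Rip-B7xAI4 minus AI4, log2) for every tested gene of the transporters and of each related list; filled circles had an unadjusted limma p under 0.05, red lines are list medians and the dashed line is the median of all tested genes (-0.10). The transporters have no filled circle, and the activation and division genes have 8.

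**Figure D5:**
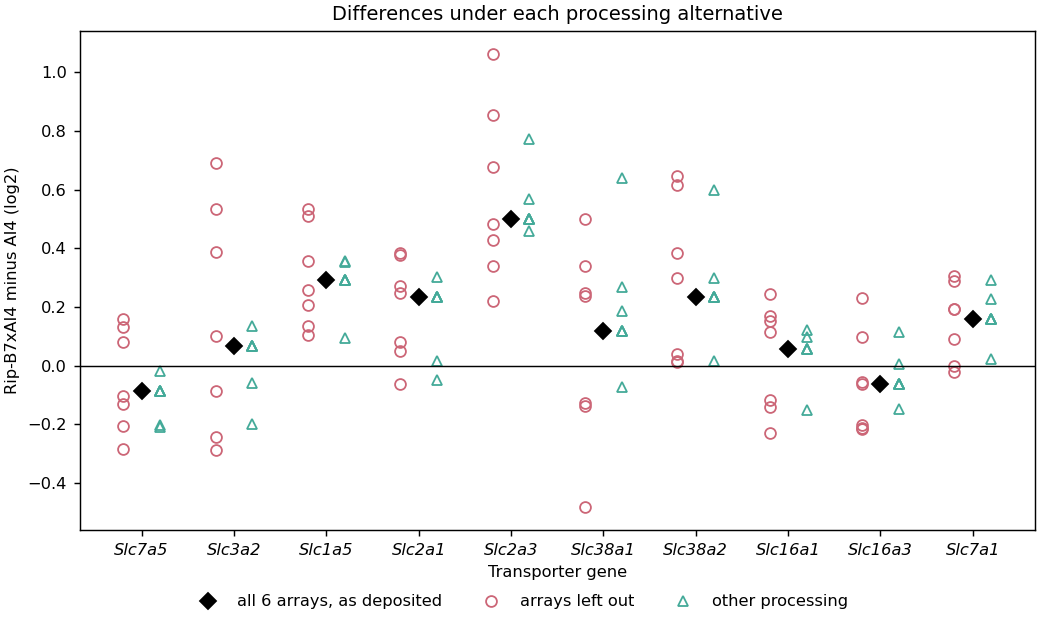
Difference between groups (log2) for each transporter with all 6 arrays as deposited (diamonds), with arrays left out (circles) and with other processing (triangles). Slc2a3, Slc1a5 and Slc38a2 stayed above 0 in all settings run, and the other 7 crossed 0 in at least 1.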

How the data were processed

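The authors deposited 1 normalized log2 value per probe and array for 6 Affymetrix arrays; that the scale is log2 was read from the range of the values. Per the submitters' processing notes Affymetrix Expression Console was used; its version and summarisation method were not given in the sources used here. Per the labels' protocols, sorting used a CD8 antibody and a peptide tetramer. Values were used as deposited. Of 28325 probes, 21760 had 1 gene symbol, 1621 several and 4944 none; only the first were named. Genes in the lowest 30% by mean were left untested, and no background measure was used. Groups came from the titles. Limma 3.58.1 in R 4.3.3 (lmFit, eBayes, 1 term for group, two-sided) was fitted to 13950 genes, with p adjusted by Benjamini and Hochberg over all of them, and was tested on simulated data. The number of arrays limits the precision; p-values measure the spread between arrays of pooled animals.

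The 10 members, the related lists and the marker lists were chosen with earlier results of these data known. Named genes are the members, the 3 tested genes of smallest p in each related list, a fixed set of regulators and markers, and the 5 genes most alike and 5 most opposed in pattern. Of the 147 entries of the related lists, 10 were not analysed here. Ins2 and Cpa1 of the set differed by -0.04 ± 0.23 (SE) and -0.20 ± 0.16, and Csf1r by 1.16 ± 0.76. The means of the other marker lists differed by 0.29 (B cell), 0.26 (CD4 T and NK cell), -0.02 (acinar), -0.08 (beta cell) and -0.34 (endothelial and stromal). Alternatives were each array left out, Rip-B7xAI4 replicates 1 and 3 left out, the replicate number as a block, quantile normalization, median centring, dim genes filtered at 50% or not at all, averaging of all probes per gene, array weights, and eBayes with trend and robust.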

Additional observations from a re-analysis of the deposited data

How the results depend on the processing

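In all 15 alternatives 0 of 10 transporters, and 0 of the related genes, passed the adjusted limit of limma. An unadjusted limma p under 0.05 was reached by 1 transporter, Slc2a3, with array weights (difference 0.77), where 2399 of 13950 tested genes reached it. Over the fits that left out 1 array the number was 0 to 1. The 1, again Slc2a3, came without Rip-B7xAI4 replicate 1, where 765 of 13950 genes reached that limit. Without Rip-B7xAI4 replicates 1 and 3 together, which leaves 1 array in that group, Slc2a3 differed by 1.06. The median difference of the 10 lay between -0.0055 (without Rip-B7xAI4 replicate 1) and 0.29 (without Rip-B7xAI4 replicate 3), and was 0.02 after quantile normalization.

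Signs of differences near 0 turned. With array weights Slc16a1 differed by -0.15, Slc16a3 by 0.12, Slc2a1 by -0.051 and Slc3a2 by -0.058. After quantile normalization Slc38a1 differed by -0.072 and Slc3a2 by -0.20, and after median centring Slc16a3 by 0.0056. Without Rip-B7xAI4 replicates 1 and 3 together Slc16a1 differed by -0.14, Slc2a1 by -0.061, Slc38a1 by -0.14 and Slc7a5 by 0.16. Leaving out 1 array gave ranges of -0.23 to 0.24 for Slc16a1, -0.22 to 0.23 for Slc16a3, -0.48 to 0.50 for Slc38a1, -0.29 to 0.53 for Slc3a2, -0.022 to 0.31 for Slc7a1 and -0.29 to 0.13 for Slc7a5. The cause was not tested. Slc16a1 was too dim for the 50% filter, which left 9 transporters.

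Deviations of same-numbered arrays from their group means correlated at -0.08, 0.06 and -0.22 over tested genes. For arrays of different numbers the values ran from -0.10 to 0.20. Deviations from a mean of 3 arrays depend on each other, so these values cannot settle whether the replicate numbers mark pairs. With the replicate block 0 of 10 transporters had an unadjusted p under 0.05, and 993 genes in place of 1218. The adjusted limit was passed by 1 gene as deposited, 38 with array weights, 22 when Rip-B7xAI4 replicate 2 was left out, 2 when AI4 replicate 1 was, and 0 with the replicate block, without AI4 replicates 2 or 3, without Rip-B7xAI4 replicates 1 or 3 or without both of these. With no background measure, how far dim values such as those of Slc16a1 are compressed is not known.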

Other observations

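Of the 255 tested solute carrier genes outside the 10 transporters, 5 were higher and 11 lower at an unadjusted p under 0.05 by limma, and 0 passed the adjusted limit. The share in both directions, 6.27%, stands beside 8.73% of all tested genes. Some of the counted genes had 1 group mean below the limit of 5.4709 for testing. Slc25a24, with an AI4 mean of 5.34, was tested only through its Rip-B7xAI4 level. Slc22a5, Slc27a5 and Slc25a23, with Rip-B7xAI4 means of 5.45, 5.43 and 5.4705, were tested only through AI4. The counts are therefore no support for a difference of these genes as a set. The genes described next, 1 higher and 1 lower, were picked for naming after their values were seen. Slc43a3, a purine nucleobase carrier of the same family as the leucine carrier Slc43a1, read 6.95, 6.47 and 7.33 on the AI4 arrays and 8.06, 7.79 and 7.50 on the Rip-B7xAI4 arrays, a difference of 0.86 ± 0.27. All its Rip-B7xAI4 arrays were above all AI4 arrays, as for 17.9% of tested genes in one or the other direction, and the part of myeloid cells in these values was not tested. Slc12a7, a potassium-chloride cotransporter, was lower in Rip-B7xAI4, at 6.51, 7.35 and 6.92 against 7.92, 7.57 and 8.48, a difference of -1.06 ± 0.31.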
